A study of Homo sapiens with 4 samples.

Results

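The genes described here are 9 genes of the NRF2 antioxidant pathway, taken by name from a table of gene levels with 20329 usable gene entries: NFE2L2, KEAP1, NQO1, HMOX1, GCLM, GCLC, TXNRD1, SRXN1 and GPX4. All 9 had an entry, and all 9 passed the filter of a mean level of at least 1 FPKM that 13928 genes passed. FPKM, fragments scaled to gene model length and to the mapped fragments of the library, is a level per length, so levels can be compared between genes. The levels come from RNA sequencing of 4 cultures of BM1 (1833) and LM2 (4175), which come from the human triple-negative breast cancer line MDA-MB-231 and are labelled as derivatives from bone and lung metastasis. All cells carried a stably expressed shRNA from a lentiviral vector. In each line 1 culture had a non-specific shRNA (control) and 1 had an shRNA against hnRNPM (knockdown), a protein that binds RNA and regulates splicing. Each of the 4 groups is therefore 1 library, and the number of shRNA sequences used was not stated. The p-values rest on these libraries alone and hold no spread between replicate cultures. In bulk RNA a gene expressed by fewer cells cannot be told apart from less RNA per cell.

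NRF2, the product of NFE2L2, is a transcription factor that turns on genes for detoxification and for the repair of oxidative damage. In resting cells KEAP1 holds NRF2 and passes it to a CUL3 ubiquitin ligase for destruction, so that the pathway is controlled mainly through the amount of NRF2 protein and less through its mRNA. When KEAP1 is modified by oxidants or electrophiles, NRF2 escapes, pairs with a small MAF protein and binds antioxidant response elements, which share the core TGACNNNGC. NQO1, HMOX1, GCLM, GCLC, TXNRD1 and SRXN1 are widely used as readouts of this activity. GPX4 belongs to the same defence but is best known for removing lipid peroxides and so holding back ferroptosis, a form of cell death driven by iron.

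The sequences of the antioxidant response element near the start sites are shown first, for their letters only. RefSeq promoter windows of 300 bases, from 250 bases before to 50 bases after an annotated start (build GRCh38.p14), were matched by symbol for 8 of the 9 genes, in 13 windows; HMOX1 was the gene not matched. The core TGACNNNGC, searched on both strands with overlapping matches kept, was found in 4 of these 13 windows, against 13.3% of all 35116 windows. The genes were chosen as members of the NRF2 pathway, so a share above that of all windows is a description only. It was in both windows of TXNRD1, in the only window of GCLM and in 1 of the windows of KEAP1. The downstream TXNRD1 window (chr12:104286782-104287081, plus strand) and shorter stretches around the matches are printed in the direction of transcription, with the matched core in capitals. Where the capitals start with GC and end with GTCA, the core lies on the other strand.
TXNRD1, downstream window: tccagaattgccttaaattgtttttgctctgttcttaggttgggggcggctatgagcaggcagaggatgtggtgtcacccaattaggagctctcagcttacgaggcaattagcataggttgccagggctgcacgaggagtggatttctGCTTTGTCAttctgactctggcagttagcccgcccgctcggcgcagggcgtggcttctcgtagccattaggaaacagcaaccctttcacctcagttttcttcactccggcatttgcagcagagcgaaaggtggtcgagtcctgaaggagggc
TXNRD1, stretch of the upstream window (chr12:104215665-104215703): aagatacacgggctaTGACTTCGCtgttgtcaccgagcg
GCLM (chr1:93909441-93909479, minus strand): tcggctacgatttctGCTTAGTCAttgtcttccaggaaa
KEAP1 (chr19:10502779-10502817, minus strand): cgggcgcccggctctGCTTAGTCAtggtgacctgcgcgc

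The core lay 102 to 94 bases before the start in the downstream TXNRD1 window and 99 to 91 bases before it in the upstream one, 34 to 26 bases before the start of GCLM and 31 to 23 bases before that of KEAP1. The upstream TXNRD1 window and the KEAP1 window each hold another match, which is not shown. The GCLM and KEAP1 stretches hold the same 9 letters, GCTTAGTCA. The core was not found in the windows of NFE2L2, NQO1, GCLC, SRXN1 and GPX4, which says only that these letters are not in those windows. A match describes the letters and is not evidence of binding.

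The libraries and the target were checked once. From the steps between the lowest FPKM values, the libraries hold about 31300000 and 22800000 fragments (control and knockdown of BM1) and 41600000 and 27300000 fragments (LM2), which puts between about 230 and 52000 fragments behind each of the 36 member values. HNRNPM was at 16.6% of its control level in the BM1 knockdown library and at 15.4% in LM2. The labelled cell type was checked with KRT18 (129 to 319 FPKM), CD44 (155 to 223) and EGFR (31.4 to 80.6), which were present in every library, and EPCAM was low (3 to 4.59). ERBB2, whose receptor is low by definition in triple-negative cells, was at 13.5 to 21.9 FPKM, and the oestrogen and progesterone receptor genes were not analysed here. The knockdown changes moved with base composition in BM1. Genes with a GC content above 60% changed by a mean of -0.20 on the log2 scale there and genes below 40% by 0.67, against -0.16 and 0.11 in LM2. Mitochondrial genes took 9.31% and 12.8% of the summed FPKM in BM1 control and knockdown cells and 8.8% and 11.8% in LM2. The part of these shifts in the changes of single genes is given below where a value bears on it and otherwise was not tested.

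**Figure D1:**
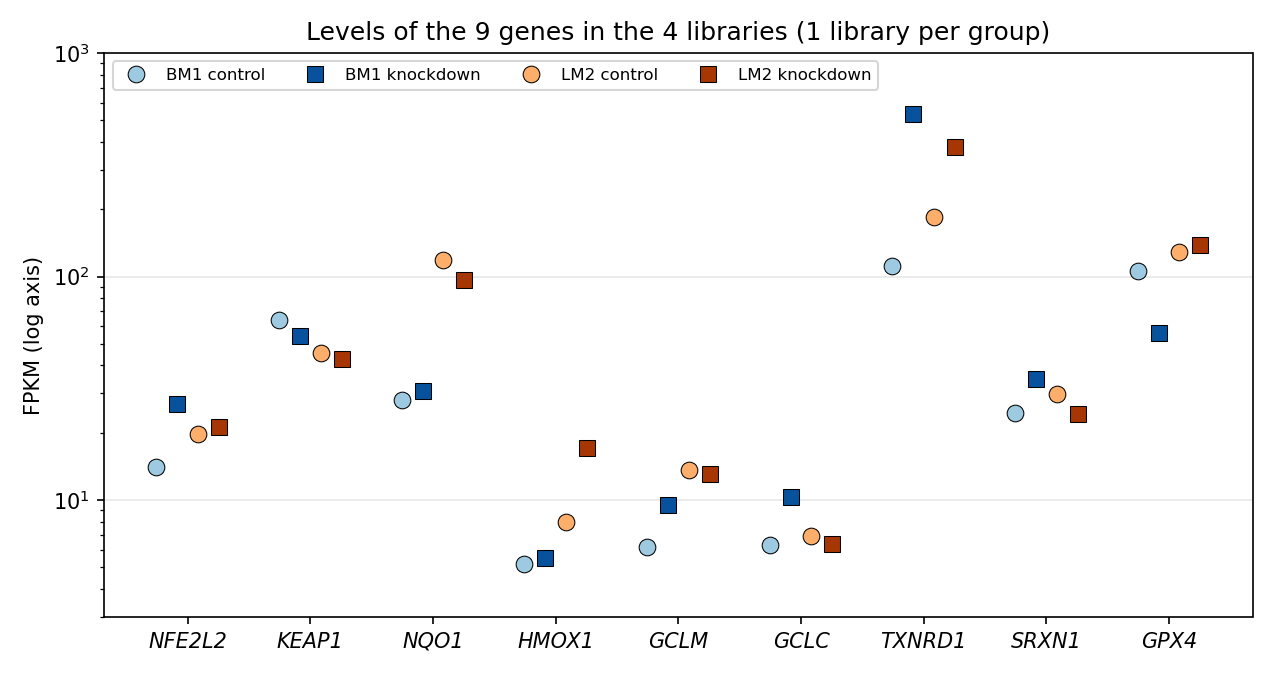
Level of each of the 9 genes (FPKM, log axis) in the control and knockdown libraries of each line, 1 point per library with no error bar because each group is 1 library. TXNRD1 is higher in both knockdown libraries (534 and 380) than in both controls (111 and 184), while NQO1 separates the lines (27.9 and 30.9 in BM1, 119 and 96.5 in LM2).

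The first comparison asked what changed in these genes when hnRNPM was depleted. TXNRD1, which encodes the cytosolic reductase that recharges thioredoxin, rose in both lines. The other 8 genes did not pass the test. Between them they ran from -0.90 (GPX4 in BM1) to 1.01 (HMOX1 in LM2) on the log2(FPKM + 1) scale. The test was limma, fitted across all 13928 genes with a term each for line and treatment and 1 degree of freedom left for the residual. That residual is the difference between the changes of the lines, not a spread of replicates. The variance of each gene is drawn towards a value shared by all genes tested, so its standard error does not rest on that gene alone. The test called 2.71% of all genes higher and 2.76% lower at an adjusted p of 0.05, and the members' count rests on TXNRD1 alone. An exact permutation within lines cannot give a two-sided p below 0.5 with 2 pairs of libraries.

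TXNRD1 (ENSG00000198431.15, chromosome 12, 104609557 to 104744083, plus strand, in the coordinates of the table) had 111 FPKM in the BM1 control library and 534 FPKM in the BM1 knockdown library. In LM2 it had 184 FPKM in the control and 380 FPKM in the knockdown library. Both knockdown levels were above both control levels, and the increase was 4.8-fold in BM1 and 2.07-fold in LM2. The share of all tested genes with such a separation was not counted, so for any member it is a description only. The change over both lines was 1.65 ± 0.32 on the log2 scale (standard error, limma, adjusted p 0.0274). In BM1, 99.4% of the tested genes had a change no larger than that of TXNRD1, and in LM2 96.5% did. With 302 FPKM on average TXNRD1 was also the most abundant of the 9 genes. With the trend with GC content and length removed, its change was 1.56 (adjusted p 0.039). The call was lost in 4 of 7 alternative analyses of all libraries, with adjusted p-values from 0.0266 to 0.309 and a change between 1.56 and 1.72. Leaving out any 1 of the 4 libraries removes a whole group and the pairing by line, so the lost calls of those fits (adjusted p from 0.326 to 0.754) say little about stability. The pair that remains gives 1.04 without either BM1 library and 2.25 without either LM2 library. RPL18AP3, a ribosomal protein pseudogene on the same strand, overlaps TXNRD1 and went from 320 to 262 FPKM (BM1) and 230 to 174 FPKM (LM2), opposite to TXNRD1. EID3, on the same strand, stayed below 1 FPKM. RP11-818F20.5, on the opposite strand, went from 2.42 to 8.82 FPKM (BM1) and 0.639 to 2.24 FPKM (LM2). The labels' protocols describe stranded libraries, but the sources used here do not give whether counting used strand.

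Neither regulator passed the test. NFE2L2 (ENSG00000116044.15, chromosome 2, 178092323 to 178257425, minus strand) had 14.1 FPKM in BM1 control and 27 FPKM in BM1 knockdown cells, and 19.8 and 21.1 FPKM in the LM2 pair. The BM1 control library was the low one, and the other 3 lay within 19.8 to 27 FPKM. Both knockdown levels were above both control levels, but the change over both lines, 0.49 ± 0.29, did not pass the test (limma, adjusted p 0.323). KEAP1 (ENSG00000079999.13, chromosome 19, 10596796 to 10614417, minus strand), the adaptor that marks NRF2 for destruction, had 63.9 and 54.4 FPKM in BM1 control and knockdown cells and 45.5 and 42.6 FPKM in the LM2 pair. Its treatment groups overlapped, and its change was -0.16 ± 0.25 (limma, adjusted p 0.737). With the trend with GC content and length removed it was 0.06, so its sign depends on that correction. NFE2L2 shares 54 bases with AGPS on the opposite strand, and AGPS itself went from 7.17 to 19.4 FPKM (BM1) and 9.85 to 13.4 FPKM (LM2). AC079305.10, on the opposite strand over 1157 bases, went from 0.276 to 2.39 FPKM (BM1) and 1.19 to 1.59 FPKM (LM2). On the same strand AC074286.1, over 109184 bases, lay between 0.746 and 1.16 FPKM. DNAJC19P5 and RP11-337N6.3, also on the same strand, reached at most 0.304 and 0.732 FPKM.

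Glutathione is made in a first, rate-limiting step by glutamate-cysteine ligase, a dimer of the catalytic subunit GCLC and the modifier subunit GCLM. GCLC (ENSG00000001084.10, chromosome 6, 53362139 to 53481768, minus strand) had 6.3 FPKM in the BM1 control library and 10.3 FPKM in the BM1 knockdown library, and 6.9 and 6.33 FPKM in the LM2 libraries. GCLM (ENSG00000023909.9, chromosome 1, 94350761 to 94375012, minus strand) had 6.16 and 9.47 FPKM in the BM1 libraries and 13.6 and 13 FPKM in the LM2 libraries. Both subunits were thus 1.63-fold and 1.54-fold higher in the BM1 knockdown library and slightly lower in the LM2 knockdown library, with overlapping treatment groups. Neither passed the test (GCLC 0.26 ± 0.28, adjusted p 0.606; GCLM 0.25 ± 0.27, adjusted p 0.612; limma). GCLM has a GC content of 37.3%, against a median of 48.6% over the tested genes, and its BM1 change went from 0.55 to -0.07 with the trend with GC content and length removed. The BM1 change of GCLC went from 0.63 to 0.50.

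SRXN1 encodes sulfiredoxin, which repairs overoxidised peroxiredoxins. SRXN1 (ENSG00000271303.1, chromosome 20, 627259 to 634014, minus strand) had 24.4 and 34.8 FPKM in BM1 control and knockdown cells and 29.7 and 24.3 FPKM in the LM2 pair. The BM1 knockdown library was the highest and the LM2 knockdown library the lowest, so the treatment groups overlapped (0.11 ± 0.28, limma, adjusted p 0.849). With the trend with GC content and length removed the change was 0.28 over both lines and 0.78 in BM1, against 0.50 there without. NQO1 (ENSG00000181019.12, chromosome 16, 69740899 to 69760854, minus strand), a quinone reductase and the most used readout of NRF2 activity, had 27.9 and 30.9 FPKM in BM1 and 119 and 96.5 FPKM in LM2. Its knockdown change was 0.14 in BM1 and -0.30 in LM2, and -0.08 ± 0.26 over both (limma, adjusted p 0.879). The NQO1 treatment groups overlapped.

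HMOX1 encodes heme oxygenase, which breaks down heme and is held off by the repressor BACH1. HMOX1 (ENSG00000100292.16, chromosome 22, 35776354 to 35790207, plus strand) had 5.19 and 5.53 FPKM in BM1 control and knockdown cells and 7.98 and 17.1 FPKM in the LM2 pair. The LM2 knockdown library stood above the other 3, at 2.14-fold its control, while the BM1 knockdown library was 1.06-fold its control. With the trend with GC content and length removed the BM1 change was 0.45, against 0.08 without. Over both lines the change was 0.54 ± 0.30 (limma, adjusted p 0.296). GPX4 (ENSG00000167468.16, chromosome 19, 1103925 to 1106790, plus strand) had 106 and 56 FPKM in the BM1 libraries and 129 and 139 FPKM in the LM2 libraries. The BM1 knockdown library was the low one, at 53% of its control, and the treatment groups overlapped (-0.40 ± 0.30, limma, adjusted p 0.452). GPX4 has a short transcript (1002 bases at the longest) and the highest GC content of the 9, 65.2%, and its BM1 change was -0.62 with the trend with GC content and length removed, against -0.90 without.

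**Figure D2:**
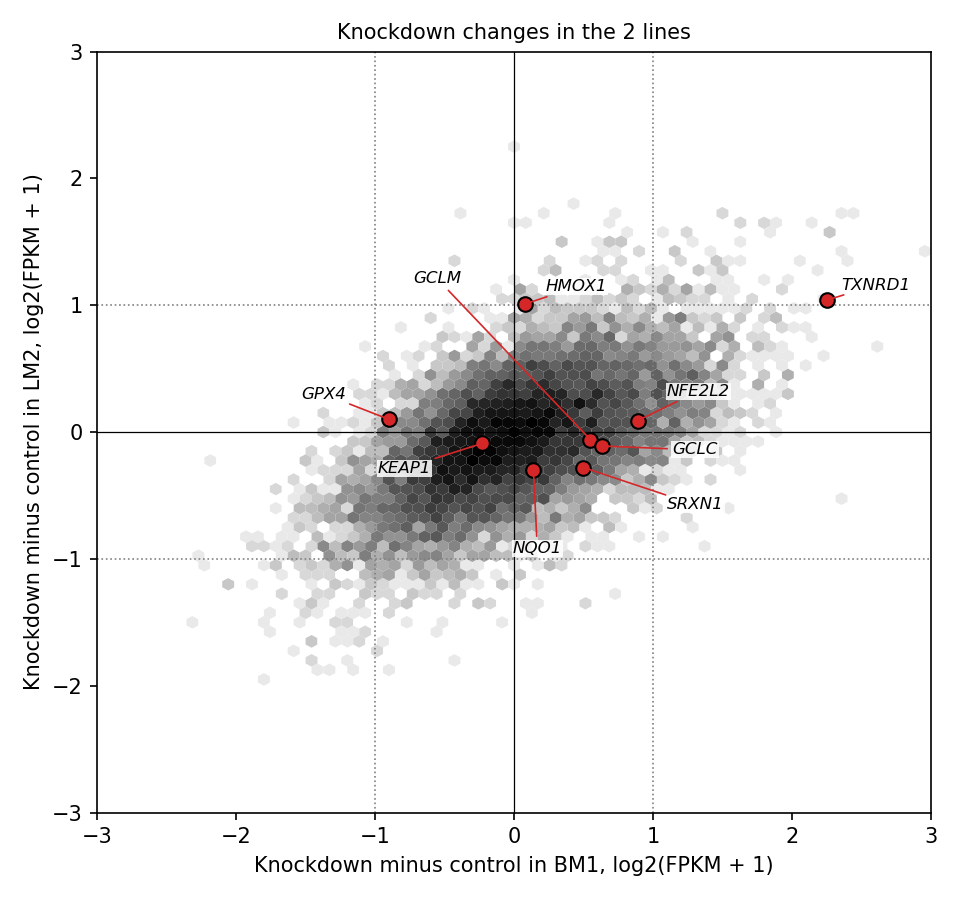
Knockdown minus control in BM1 (horizontal axis) against LM2 (vertical axis), both on the log2(FPKM + 1) scale; grey hexagons give the density of the 13928 tested genes (darker, more genes; genes beyond 3 are not drawn), red points the 9 genes, and dotted lines a 2-fold change. TXNRD1 is at 2.25 and 1.04, HMOX1 at 0.08 and 1.01, GPX4 at -0.90 and 0.10, and GCLM, GCLC and SRXN1 lie to the right of 0 in BM1 and slightly below 0 in LM2.

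Within single lines, where 1 library is set against 1 and no test exists, a change of at least 2-fold was used as the rule. In BM1 1 of the 9 genes, TXNRD1, passed it, against 16.3% of all genes tested. In LM2 TXNRD1 (1.04) and HMOX1 (1.01) passed it, both just past 1 on the log2 scale, against 8.06% of all genes tested. With the trend with GC content and length removed TXNRD1 was at 0.99 in LM2 and no longer passed. TXNRD1 was the member at least 2-fold higher in both lines (background 1.92%), and no member was at least 2-fold lower in both (background 1.95%). With a 1.5-fold rule the BM1 count was 4 of the 9, beside 5262 of the 13928 genes tested. The added genes were NFE2L2 (0.89), GCLC (0.63) and GPX4 (-0.90), which was lower. The median change of the 9 genes was 0.50 in BM1 and -0.06 in LM2, beside medians of 0.00 and -0.04 over all genes tested. The change had opposite signs in the lines for 5 of the genes (NQO1, GCLM, GCLC, SRXN1 and GPX4), as it did for 30.9% of all tested genes. The difference between the lines' changes cannot be tested with 4 libraries.

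The second comparison set LM2 against BM1. NQO1 was higher in LM2 under both treatments, and 1 of the 9 genes passed the test, against a background of 2.31% of genes called higher and 2.04% called lower in LM2. The NQO1 level in LM2 was 4.26-fold that in BM1 between controls and 3.12-fold between knockdowns, with no overlap between the lines (1.83 ± 0.26, limma, adjusted p 0.00772). This call was lost in 4 of 7 alternative analyses of all libraries (limma, adjusted p from 0.00798 to 0.213), while the difference stayed between 1.83 and 1.87. The fits without any 1 library, which lose a group and the pairing, gave an adjusted p from 0.214 to 0.577, and the pair that remains gives 1.61 or 2.05. NQO1 overlaps CTD-2033A16.1 on the opposite strand over 710 bases, and that gene followed it closely, at 14.2 and 16.3 FPKM in BM1 and 63.5 and 45.5 FPKM in LM2. Reads of the 2 genes within that overlap cannot be told apart if strand was not used in counting. The longest NQO1 transcript has 2912 bases. NQO1 had the largest spread of the 9 genes over the libraries (SD 1.07 on the log2 scale). The 3 tested genes with the nearest profile to it over the 4 libraries, by Euclidean distance of centred log2(FPKM + 1) values, were RPL23AP53 (0.10), COL18A1 (0.14) and CTD-2033A16.1 itself (0.15); with 4 points this is a description only.

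HMOX1, GCLM and GPX4 also had both LM2 levels above both BM1 levels, but did not pass the test. How many of all tested genes separate by line in this way was not counted, so the separation is a description only. The adjusted p was 0.095 for HMOX1, 0.165 for GCLM (0.72 ± 0.27) and 0.172 for GPX4 (0.79 ± 0.30) in limma. They were spread differently over the treatments. For HMOX1 the lines differed by 0.54 between controls and 1.47 between knockdowns, and for GPX4 by 0.29 and 1.30. For GCLM the order was the other way, 1.03 between controls and 0.42 between knockdowns. With the trend with GC content and length removed, the GCLM differences were close to each other, 0.62 and 0.49. Those of HMOX1 were then 0.79 and 1.46, and those of GPX4 0.44 and 1.31. KEAP1 had both LM2 levels below both BM1 levels, at 71.2% between controls and 78.3% between knockdowns (-0.41 ± 0.25, limma, adjusted p 0.375). TXNRD1, NFE2L2, GCLC and SRXN1 were higher in LM2 between controls and lower in LM2 between knockdowns, with average differences from -0.25 (GCLC) to 0.11 (TXNRD1) and adjusted p-values from 0.638 to 0.926 (limma). By the 2-fold rule NQO1 and GCLM passed between controls (background 12.2%), and NQO1, HMOX1 and GPX4 between knockdowns (background 9.04%). With the trend removed GCLM no longer passed between controls. NQO1 was the member at least 2-fold higher in LM2 under both treatments (background 1.98%), and none was at least 2-fold lower under both (background 1.69%).

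**Figure D3:**
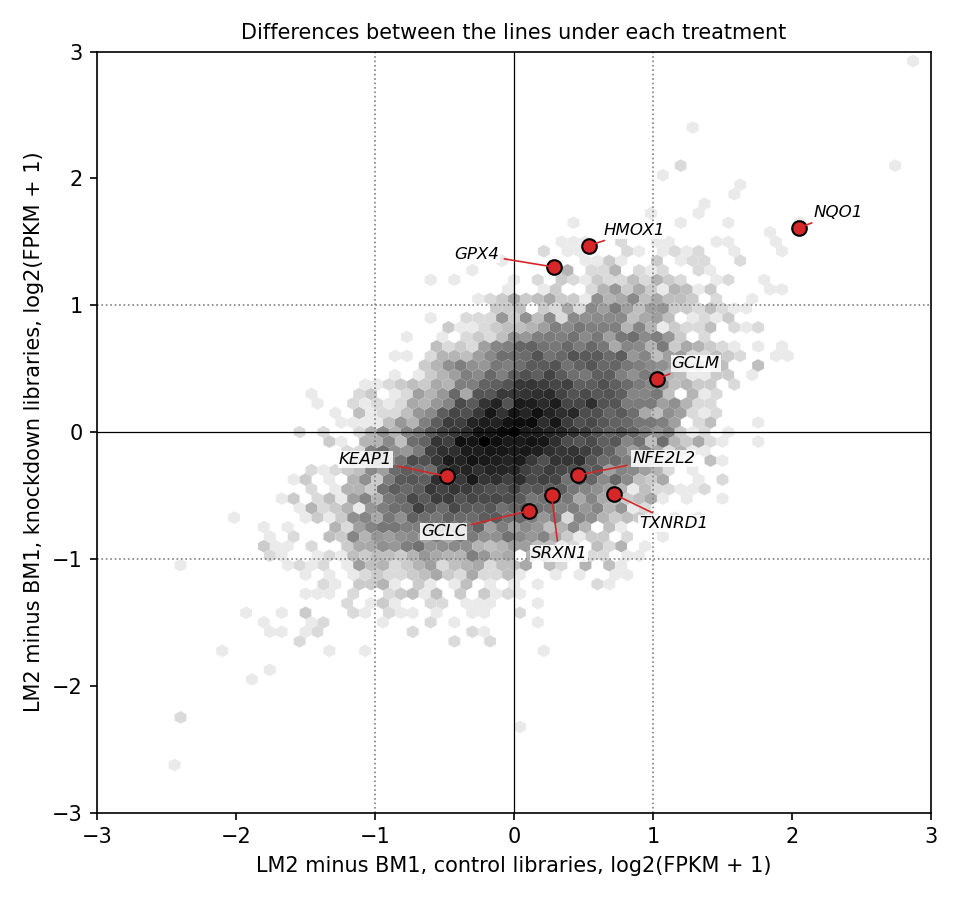
LM2 minus BM1 between control libraries (horizontal axis) and between knockdown libraries (vertical axis), on the log2(FPKM + 1) scale; grey hexagons give the density of the 13928 tested genes (genes beyond 3 are not drawn), red points the 9 genes, and dotted lines a 2-fold difference. NQO1 is at 2.05 and 1.61, while TXNRD1, NFE2L2, GCLC and SRXN1 lie right of 0 and below 0.

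The wider pathway was described with 7 lists written from general knowledge, 121 genes besides the 9. Of these 112 were tested, and 6 (5.36%) were called higher and 8 (7.14%) lower after knockdown, beside 2.71% and 2.76% of all genes. The lists were chosen with earlier results of these data known, so a share above that of all genes is a description only. The median change of these 112 genes was 0.01. With quantile normalization, with no filter or without pairing by line, 0 genes were called after knockdown, so the knockdown calls of the lists were lost there. The changes of the list genes with the trend with GC content and length removed are not given here. Among regulators and partners of NRF2 (12 tested) 1 rose and 1 fell. MAFK, a small MAF protein that dimerises with NRF2 on its target sites, rose from 6.15 to 13.8 FPKM (BM1) and 4.57 to 11.4 FPKM (LM2) (1.10 ± 0.25, limma, adjusted p 0.0423). MAFF, another small MAF, fell from 8.35 to 3.49 FPKM (BM1) and 18.4 to 5.48 FPKM (LM2) (-1.32 ± 0.27, adjusted p 0.0296). Both MAF genes overlap other genes: MAFK lies with AC093734.1 on its own strand, which went from 10.8 to 26.6 and from 8.95 to 20.8 FPKM, and MAFF with PLA2G6 on the opposite strand. BACH1, the repressor that competes with NRF2, had 3.33 and 7.98 FPKM in BM1 and 6.11 and 9.87 FPKM in LM2 and did not pass (0.83 ± 0.26, adjusted p 0.0996).

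Of the other NRF2 target genes (25 tested) 3 rose and 1 fell, with a median of 0.24 in each line. ABCC3, an export pump for conjugated compounds, rose from 1.66 to 6.88 FPKM (BM1) and 5.9 to 14.5 FPKM (LM2) (1.37 ± 0.26, limma, adjusted p 0.0249), and was also higher in LM2 (1.17, adjusted p 0.0433). TRIM16L rose from 6.64 to 20 FPKM and from 7.95 to 20.6 FPKM, and the reductase gene AKR1C3 from 5.74 to 17.2 FPKM and from 10.8 to 21.1 FPKM, in BM1 and LM2. TRIM16L and AKR1C3 have close copies in the genome, AKR1C3 overlaps AKR1C1 and AKR1C2, and reads may be split between them. PGD, an enzyme of the pentose phosphate pathway that yields NADPH, fell from 160 to 71.9 FPKM (BM1) and 83 to 31.7 FPKM (LM2) (-1.25 ± 0.25, limma, adjusted p 0.0296). SLC7A11, the cystine transporter that feeds glutathione synthesis, had 4.45 and 31.5 FPKM in BM1 and 16.6 and 27.7 FPKM in LM2. It narrowly missed the threshold (1.64 ± 0.40, limma, adjusted p 0.0525). OSGIN1 of the same list (1.02 ± 0.25, limma, adjusted p 0.0525) and TFRC of the heme and iron list (1.16 ± 0.28, limma, adjusted p 0.0514) missed it as narrowly. SLC7A11, OSGIN1 and TFRC are named after their values were seen.

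Of the genes that make or use glutathione (24 tested) 0 rose and 3 fell, with a median of -0.13 in BM1 and -0.17 in LM2. GSTP1, a transferase that joins glutathione to electrophiles, fell from 135 to 30.5 FPKM (BM1) and 144 to 49.3 FPKM (LM2) (-1.82 ± 0.27, limma, adjusted p 0.0124). GPX1, the abundant cytosolic glutathione peroxidase, fell from 232 to 48.8 FPKM and from 426 to 201 FPKM (-1.65 ± 0.32, adjusted p 0.0254). GLRX, a glutaredoxin, fell from 28.2 to 10.6 FPKM and from 28.6 to 8.56 FPKM (-1.48 ± 0.26, adjusted p 0.0196). RHOBTB3, which overlaps GLRX on the opposite strand, went from 15 to 101 FPKM and from 22.6 to 64.9 FPKM, so reads of GLRX are uncertain. Of 18 thioredoxin and peroxiredoxin genes 0 passed the test (limma), and 5 (27.8%) had an unadjusted p under 0.05, near the 24.9% of all genes tested. TXN, the substrate of TXNRD1, had 284 and 207 FPKM in BM1 and 609 and 478 FPKM in LM2. TXN was higher in LM2 (1.15 ± 0.25, limma, adjusted p 0.0414), as was GPX1 (1.45, adjusted p 0.042), while TXNL1 (-1.93, adjusted p 0.00513) and GSTM4 (-1.56, adjusted p 0.0122) were lower.

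TXNRD1 and GPX4 carry selenocysteine, which is inserted by a dedicated machinery, so genes of selenoprotein synthesis and other selenoproteins formed a list (18 tested, 1 called higher and 3 lower, median -0.15 in BM1 and -0.08 in LM2). EEFSEC, the elongation factor that delivers selenocysteine, fell from 7.45 to 2.48 FPKM (BM1) and 5.93 to 1.3 FPKM (LM2) (-1.44 ± 0.26, limma, adjusted p 0.0208). SELO fell from 9.6 to 3.99 and from 7.83 to 3.06 FPKM, and GPX1 is the third. SECISBP2L, related to the protein that reads the selenocysteine signal, rose from 2.63 to 12.1 FPKM and from 5.98 to 12.3 FPKM. Of 7 genes that remove superoxide and peroxide 1 was called, the extracellular dismutase gene SOD3, which fell from 10.6 to 2.96 FPKM and from 12.8 to 6.26 FPKM. Of 18 genes of heme, iron and lipid peroxidation 1 was called, COQ10B, which binds coenzyme Q and rose from 5.33 to 21.9 FPKM and from 6.71 to 23.2 FPKM (1.75 ± 0.25, limma, adjusted p 0.012). EEFSEC overlaps RUVBL1, SELO overlaps RP3-402G11.28 and TXNL1 overlaps WDR7 on opposite strands, and GSTM4 overlaps GSTM2 on its own strand, so their reads are uncertain in the same way. Of the called genes of the 7 lists, 10 had a RefSeq window. The antioxidant response core was found for 0 of the 3 that rose (AKR1C3, SECISBP2L and COQ10B) and for 3 of the 7 that fell, beside 16.1% of all genes with a window. GSTP1, PGD and MAFF held it, while GLRX, GPX1, SOD3 and EEFSEC did not, and MAFK, ABCC3, TRIM16L and SELO were not matched. Over the 7 lists, 11.1% (selenoprotein list) to 40% (glutathione list) of the genes with a window held the core, called or not. With 3 and 7 genes, those that rose and those that fell cannot be compared. The stretches that hold the core are shown for their letters only.
GSTP1 (chr11:67583731-67583769, plus strand): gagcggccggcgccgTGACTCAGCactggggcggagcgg
PGD (chr1:10398848-10398886, plus strand): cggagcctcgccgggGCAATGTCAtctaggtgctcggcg
MAFF (chr22:38201857-38201895, plus strand): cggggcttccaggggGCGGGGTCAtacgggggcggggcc

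**Figure D4:**
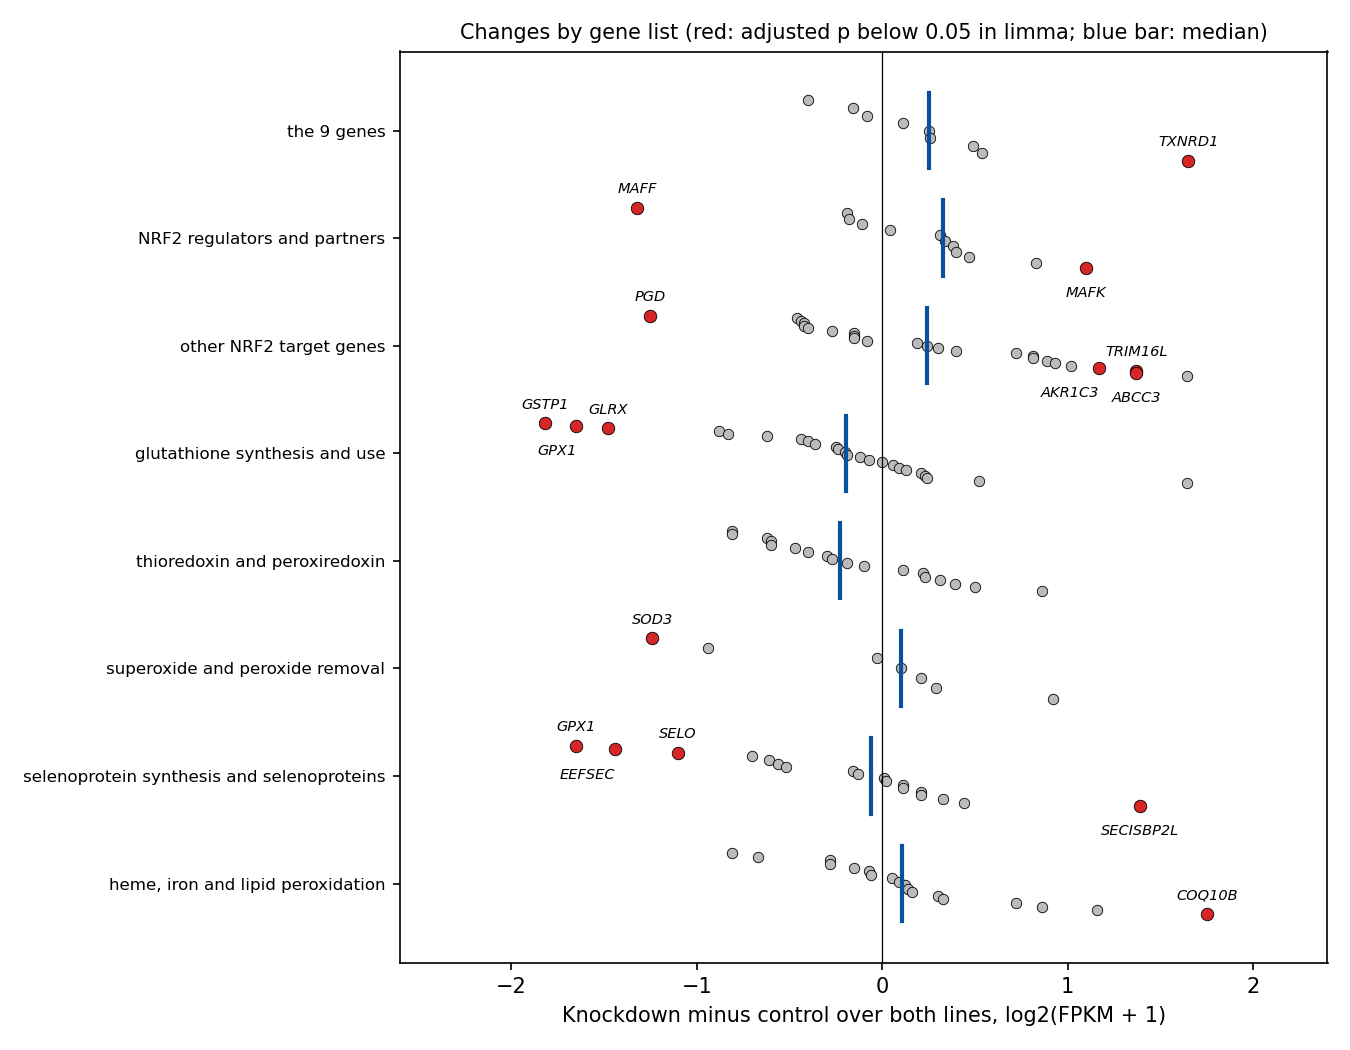
Knockdown minus control over both lines on the log2(FPKM + 1) scale for each tested gene of the 9 genes and the 7 lists; red points have an adjusted p below 0.05 in limma, blue bars are list medians, and a gene in several lists is drawn in each. TXNRD1 is the red point of the 9 genes at 1.65, and the red points of glutathione synthesis and use (GSTP1, GPX1 and GLRX) all lie below 0.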

How the data were processed

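The 4 cultures were sequenced as stranded, paired-end, polyA-selected libraries, per the labels' protocols. The authors deposited 1 table of FPKM values per gene, already scaled to gene length and library size. The submitters' processing notes name STAR 2.5.3a, Cuffdiff 2.2.1 and GRCh37 without their roles, so the program that made the table is unknown here. Of its entries, 40 rows that share a repeated gene ID were left out. Only 35.9% to 43.8% of the low values were whole multiples of a step, within a tolerance of 0.02, so no count test was run. The depths inferred from these steps (2.31% to 3.05% whole at other step sizes) are approximate.

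Values were analysed as log2(FPKM + 1) with limma 3.58.1 (R 4.3.3) and Python 3.11.15 on 13928 genes with a mean of at least 1 FPKM, with line as the block. Benjamini-Hochberg adjustment ran over all of them, at 0.05. A fold change on this scale understates that of low genes. The scripts were tested on simulated data. GC content and length came from GENCODE 29 by gene ID, for 13723 tested genes. All 9 genes, and every called gene of the 7 lists, are named, and others are named where the text says so or where they overlap. BACH1 is named as the repressor of HMOX1, after its values were seen. The members and lists were chosen with earlier results of these data known. Alternatives were other pseudocounts, scaling, no filter, no block, a 1.5-fold rule, each library left out (a fit of the other 3 with the contrast alone), and, chosen after seeing the data, a correction for GC content and transcript length. Line pairs the libraries because each knockdown and control come from the same cell line.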

Additional observations from a re-analysis of the deposited data

Results flagged for a closer look

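For 5 genes the single BM1 pair and the single LM2 pair of libraries had opposite signs of the knockdown difference, on the log2(FPKM + 1) scale. NQO1 gave 0.14 in BM1 and -0.30 in LM2, and SRXN1 gave 0.50 and -0.28. The glutamate-cysteine ligase subunits gave 0.55 and -0.06 (GCLM) and 0.63 and -0.11 (GCLC). GPX4 gave -0.90 and 0.10, the widest gap of the 5. These differences between the lines were not tested, because 4 libraries leave no residual degree of freedom for an interaction.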

How the results depend on the processing

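The calls depended on the settings more than the sizes did. After knockdown 762 genes and 1 of the 9 were called by limma. The counts were 27 and 0 with a pseudocount of 0.1, 0 and 0 with quantile normalization, 0 and 0 with no filter, and 0 and 0 with no replicate block (the fit without pairing by line, in which 1548 genes had an unadjusted p under 0.05). Leaving out 1 library removes a group and the pairing, so a lost call there says little. In those fits 0 genes and 0 members were called in every case, with 860 to 1943 genes at an unadjusted p under 0.05. Between lines 606 genes and 1 member were called. These became 216 and 0 (pseudocount of 0.1), 104 and 0 (quantile normalization), 0 and 0 (no filter), 11 and 0 (no replicate block), and 6 to 28 genes and 0 members without 1 library. The adjusted p of TXNRD1 was 0.115, 0.108, 0.227 and 0.309 under the first 4 settings, and that of NQO1 between lines 0.0574, 0.0506, 0.213 and 0.182. With a 1.5-fold rule 5262 of the 13928 genes tested passed in BM1 (4 of the 9 members), 3418 in LM2, 4738 between controls and 3865 between knockdowns. With a pseudocount of 0.1, 1824 passed in LM2, 2636 between controls and 2013 between knockdowns. With quantile normalization or with the GC and length trend removed, 1 member passed 2-fold in LM2 and 1 between controls. Removing that trend reversed KEAP1 (0.06) and GCLM (-0.14) over both lines, lowered GPX4 in size (-0.18, from -0.40) and GCLC (0.17, from 0.26), and raised HMOX1 (0.78, from 0.54) and SRXN1 (0.28, from 0.11). Leaving out 1 library leaves the other pair, so the knockdown change ranged from -0.30 to 0.14 for NQO1, -0.06 to 0.55 for GCLM, -0.11 to 0.63 for GCLC, -0.28 to 0.50 for SRXN1 and -0.90 to 0.10 for GPX4. Likewise the line difference ranged from -0.34 to 0.46 for NFE2L2, -0.62 to 0.11 for GCLC, -0.49 to 0.72 for TXNRD1 and -0.50 to 0.27 for SRXN1. Other causes of lost calls were not tested.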

Other observations

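Ratios of FPKM within a library describe the balance between partners, with 1 library per group and no test. GCLM to GCLC, the modifier to the catalytic subunit, was 0.977 and 0.922 in BM1 control and knockdown cells and 1.97 and 2.06 in the LM2 pair. On these uncorrected values the balance differed by line and little by treatment. With the trend with GC content and length removed, the BM1 knockdown change was -0.07 for GCLM and 0.50 for GCLC. The small treatment difference in BM1 therefore depends on that correction. With it, LM2 minus BM1 between controls was 0.62 for GCLM and 0.04 for GCLC, against 1.03 and 0.11 without. Between knockdowns it was 0.49 and -0.61, against 0.42 and -0.62 without. The difference in balance between the control libraries was thus smaller with the correction. TXNRD1 to TXN, the reductase to its substrate, was 0.392 and 2.58 in BM1 and 0.302 and 0.795 in LM2. TXNRD1 to its mitochondrial counterpart TXNRD2 was 12.5 and 49.3 in BM1 and 14.6 and 30.8 in LM2. Both ratios were higher in each knockdown library than in its control, which repeats the rise of TXNRD1 given above and is not a separate result.

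NFE2L2 to KEAP1 was 0.22 in the BM1 control and lay between 0.435 and 0.497 in the other 3 libraries. MAFK to MAFF was 0.737 and 3.96 in BM1 and 0.248 and 2.08 in LM2. GPX4 to GPX1 was 0.455 and 1.15 in BM1 and 0.303 and 0.692 in LM2, although GPX4 itself did not pass the test. The MAFK to MAFF ratio repeats the rise of MAFK and the fall of MAFF given above. GPX4 to GPX1 repeats the fall of GPX1, so neither ratio is a separate result.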
